A study of Homo sapiens with 4 samples.

Results

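Proteasome genes were taken by name from the count table of a STAT3 knockdown experiment. Every row whose symbol is PSM, a letter from A to G and a number was used, which gave 47 of 27452 genes. Of these, 46 passed the filter on low counts and were tested. PSMB11, the thymus form of a catalytic beta subunit, had 1 read in all 4 libraries together and was not tested. PSMA8, the testis alpha subunit, was not analysed here.

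The proteasome is the large protease that degrades proteins marked with ubiquitin. Its barrel-shaped core particle is a stack of alpha rings, which gate the entrance, and beta rings, which hold the catalytic sites. A regulatory particle of ATPases and other subunits binds at its ends, recognises ubiquitin chains, removes them and unfolds the substrate. After interferon signalling, 3 catalytic subunits can be replaced by the inducible PSMB8, PSMB9 and PSMB10, which form the immunoproteasome and favour peptides for MHC class I presentation. Other activators (the PSME genes) can cap the core in place of the regulatory particle.

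The experiment asked which genes respond to knockdown of STAT3, which carries signals of cytokine receptors to the nucleus and acts there as a transcription factor. Cells labelled HepG2, an established human hepatoma line, carried either a control short hairpin RNA (Ctrl shRNA) or one against STAT3 (STAT3 shRNA), so both groups carried a hairpin. Each group had 2 RNA sequencing libraries of cells grown in DMEM with serum. The hairpin sequences, and whether the pair of libraries in a group stems from separate lines, hairpins or cultures of one line, are not stated, so the spread behind the p-values is that of these libraries and may be technical. Effects of the hairpin on other targets cannot be told apart from those of lower STAT3.

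Total counts ran from 17694642 to 25862027 per library, and 3 reads corresponded to 0.116 to 0.17 CPM (counts scaled here to library size with TMM factors). STAT3 had 245 and 244 CPM with Ctrl shRNA and 34.7 and 36.1 CPM with STAT3 shRNA, a 6.91-fold lower level (edgeR quasi-likelihood test, Benjamini-Hochberg adjusted p = 3.28e-07). The liver label was not borne out by the defining markers that were analysed. ALB had 0 to 3 reads per library and APOA1 0 to 2, while AHSG had 0 reads with Ctrl shRNA and 11 and 5 with STAT3 shRNA. The transcription factor HNF4A had 1.27 and 1.78 CPM with Ctrl shRNA and 7.20 and 4.95 CPM with STAT3 shRNA, while TF, which encodes transferrin, was lower (2.01 and 2.14 against 0.9 and 0.435 CPM, edgeR adjusted p = 0.0236). Summed over the 5 markers analysed of 10 listed (the others were not analysed here), the level was 3.29 and 3.92 CPM with Ctrl shRNA and 8.55 and 5.92 CPM with STAT3 shRNA. Among markers of other cell types, CD14 and LYZ were below 1 CPM in every library, CD68 had 10.4 and 14.4 against 24.0 and 27.9 CPM, and VWF and CDH5 together 1.16 to 1.75 CPM. Fibroblast markers differed in direction: COL1A1 had 38.1 and 43.2 against 15.01 and 14.3 CPM, DCN 10.4 and 11.3 against 14.6 and 15.3 CPM and PDGFRB 4.24 and 5.70 against 5.78 and 5.54 CPM, LUM had at most 7 reads in any library, and their sum was 52.8 and 60.3 against 35.6 and 35.5 CPM. The libraries are therefore named by their labels only. The part of these differences in the results below was not tested, and in such bulk RNA fewer cells of a type and less RNA per cell cannot be told apart. The Ctrl shRNA libraries differed more from each other than the STAT3 shRNA libraries did (chi-square across genes divided by its degrees of freedom 14.99, and 4.39 for STAT3 shRNA), with a difference that followed transcript GC content.

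Many transcripts of the core and of the regulatory particle were lower with STAT3 shRNA by less than 2-fold, while PSMB9, an immunoproteasome subunit, was higher. Of the 46 genes, 19 fell, 1 rose and 26 did not pass the threshold (adjusted p under 0.05). Among all 15199 genes tested, 35.5% passed it, 18.7% lower and 16.8% higher, so lower calls made up 41.3% of proteasome genes and 18.7% of all genes, and higher calls 2.17% against 16.8%. The median log2 fold change was -0.20 for the proteasome genes and 0.02 for all genes, with 32 negative and 14 positive values. In 39 of the 46 genes (84.8%) the groups did not overlap, against 70.8% of all genes tested. The changes were small: none of the 46 changed by at least 2-fold, while 11.6% of all genes tested did. The median absolute log2 difference between the groups was 0.23, beside 0.12 within the Ctrl shRNA pair and 0.05 within the STAT3 shRNA pair. For 33 of the 46 the difference between groups exceeded both differences within groups. How often this held among all genes tested is not reported here, so the count is a description only. Together the proteasome genes took 0.726% of reads in each Ctrl shRNA library and 0.662% and 0.677% with STAT3 shRNA.

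How many of these calls were made depended on single libraries and on the unit. Without STAT3 shRNA replicate 1, 5 genes were called lower (8.92% of all genes tested), and without STAT3 shRNA replicate 2 this number was 8 (8.95%). Without Ctrl shRNA replicate 1, 27 were called lower and 4 higher and the median was -0.31, beside 24.5% lower and 21% higher among all genes tested. Without Ctrl shRNA replicate 2, 23 were lower and 4 higher, beside 18.3% and 16% of all genes tested. On the deposited FPKM (fragments scaled to transcript length and library size) with a pseudocount of 1, limma called 6 lower (7.8% of all genes tested) and 1 higher. PSMA7, PSMB5, PSMD14, PSMG4 and PSMB9 passed the threshold in all 16 alternatives other than a test against a fold of 1.5, which 0 of the 46 passed.

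**Figure D1:**
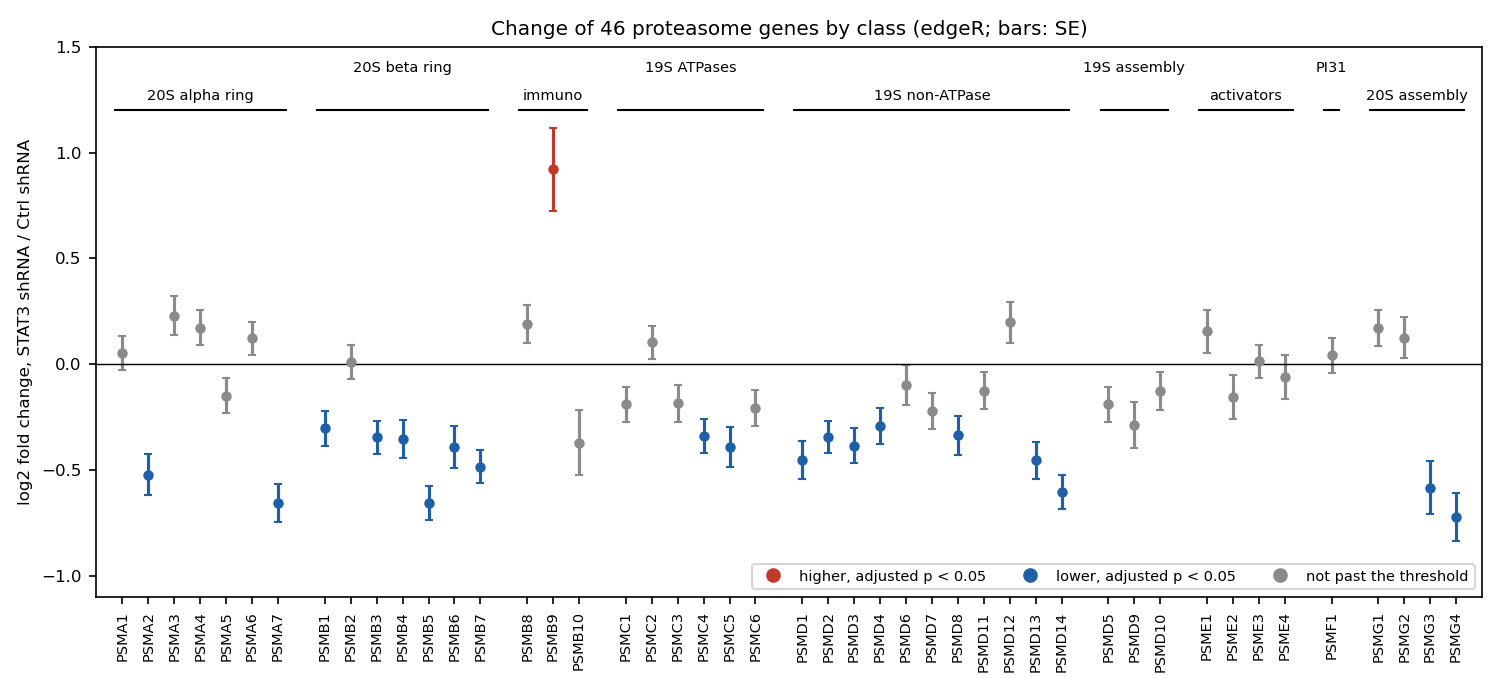
Log2 fold change of STAT3 shRNA over Ctrl shRNA for the 46 tested proteasome genes, ordered by class. Points are edgeR estimates and bars their SE from 2 libraries per group. PSMB9 (0.92) stands alone above 0.5, the coloured points below 0 are the 19 genes that fell, and the 5 grey alpha ring genes lie between -0.15 and 0.23.

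The levels of the core subunits per transcript length spanned a 5.58-fold to 7.34-fold range within a library, although the assembled core holds its subunits in equal numbers. PSMA7 was the highest core gene with Ctrl shRNA (525 and 599 FPKM) and PSMA4 with STAT3 shRNA (513 and 540.3 FPKM). PSMB2 was the lowest in all 4, with 86.5 and 81.7 FPKM with Ctrl shRNA and 92.0 and 93.8 FPKM with STAT3 shRNA. The order of the 46 genes by mean FPKM was close in both groups (Spearman rho of 0.952 across genes, which share libraries and are not replicates). Lowest of the 46 were PSMB9, with 7.47 and 9.98 FPKM with Ctrl shRNA and 18.2 and 19.9 FPKM with STAT3 shRNA, and PSME4 (18.6 and 13.6 against 17.7 and 18.5 FPKM). The groups did not overlap for PSMB9 and did for PSME4.

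**Figure D2:**
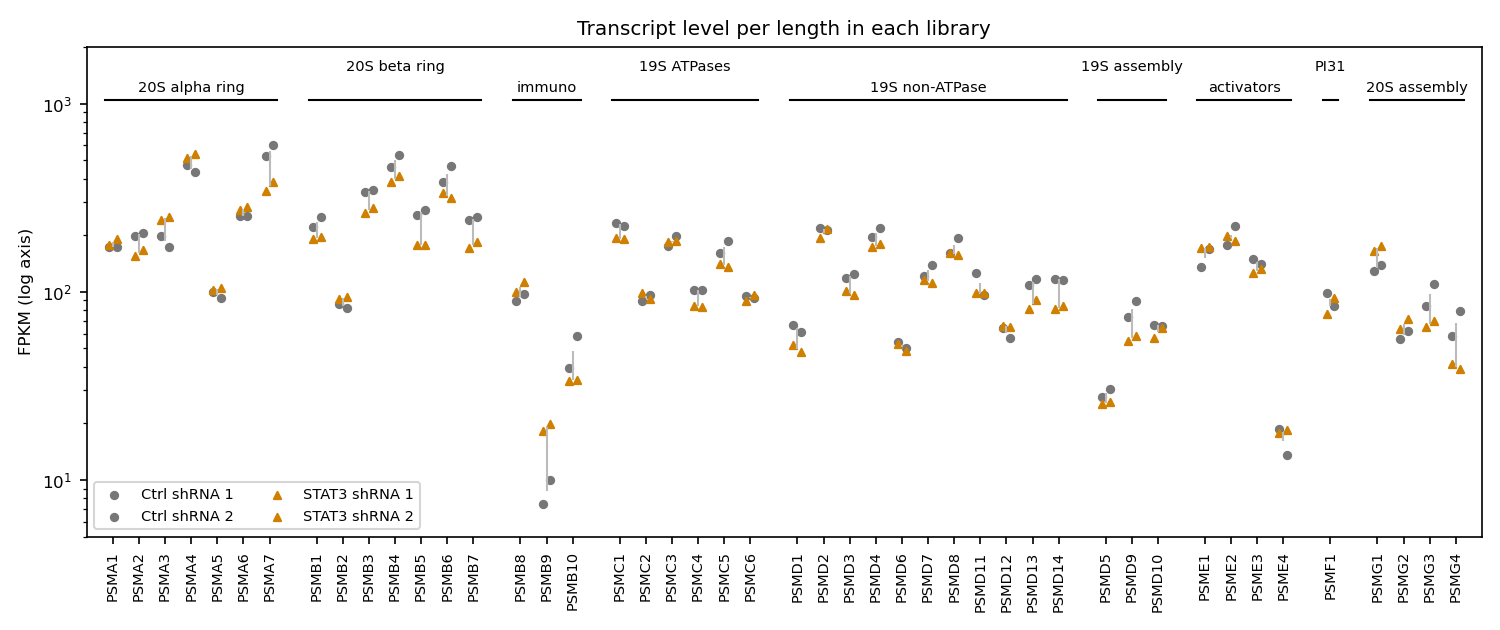
FPKM of each tested proteasome gene in each library on a log axis, with circles for Ctrl shRNA, triangles for STAT3 shRNA and a line between the group means. Core genes other than PSMB2 and PSMA5 lie above 100 FPKM, and PSMB9 lies below 20 FPKM in every library.

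In the alpha ring, 2 of 7 genes fell and 5 did not pass the threshold (median log2 fold change 0.05). The share that fell was 28.6%, beside 18.7% lower among all genes tested. PSMA7, an alpha ring subunit (chr20:62136735-62143440, minus strand in GRCh38), had 378 and 421 CPM with Ctrl shRNA and 243 and 264 CPM with STAT3 shRNA. Both STAT3 shRNA libraries were below both Ctrl shRNA libraries, a 1.58-fold lower level (edgeR, log2 fold change -0.66 ± 0.090 SE, adjusted p = 0.00083). PSMA2 had 187 and 198 CPM with Ctrl shRNA and 124 and 145 CPM with STAT3 shRNA, 1.44-fold lower without overlap (edgeR, log2 fold change -0.52 ± 0.097 SE, adjusted p = 0.00375), and its call was lost without STAT3 shRNA replicate 1 and on FPKM. Part of PSMA2 shares exons with MRPL32, which had 33.4% as many reads, and the use of strand in counting is not stated. PSMA2 also shares exons with AC010132.3, which lies on the same strand. AC010132.3 had 6.55% as many reads as PSMA2 and a log2 fold change of 2.21, and the part of this in the PSMA2 result was not tested. The other alpha ring genes stayed within 1.2-fold. PSMA3 had 133 and 116 against 143 and 149 CPM and PSMA4 286 and 263 against 305 and 313 CPM, both without overlap and higher with STAT3 shRNA, at adjusted p (edgeR) of 0.0854 and 0.136. Without Ctrl shRNA replicate 1 both were called higher (adjusted p = 0.00424 and 0.0239). PSMA1, PSMA5 and PSMA6 had log2 fold changes of 0.05, -0.15 and 0.12.

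In the constitutive beta ring 6 of 7 genes fell and PSMB2 did not (median log2 fold change -0.35). The share that fell was 85.7%, beside 18.7% lower among all genes tested. The difference from the alpha ring was not tested. Its 3 catalytic subunits, PSMB5 with chymotrypsin-like, PSMB6 with caspase-like and PSMB7 with trypsin-like activity, all fell. PSMB5 (chr14:23016543-23035230, minus strand) had 262 and 275 CPM with Ctrl shRNA and 172 and 169 CPM with STAT3 shRNA. The groups were far apart relative to either pair, and the level was 1.58-fold lower (edgeR, log2 fold change -0.66 ± 0.080 SE, adjusted p = 0.000473; adjusted p from 5.22e-11 to 0.0188 over 16 alternatives). PSMB7 had 178 and 179 CPM with Ctrl shRNA and 125 and 130.2 CPM with STAT3 shRNA. It was 1.40-fold lower (edgeR, log2 fold change -0.48 ± 0.080 SE, adjusted p = 0.00209), a call lost without STAT3 shRNA replicate 1 (adjusted p = 0.0545). PSMB6 had 223 and 258 CPM with Ctrl shRNA and 192 and 174 CPM with STAT3 shRNA, with a wider Ctrl shRNA pair and no overlap. It was 1.31-fold lower (edgeR, log2 fold change -0.39 ± 0.098 SE, adjusted p = 0.0147). Of the non-catalytic subunits, PSMB4 had 315 and 353 against 254 and 268 CPM (edgeR adjusted p = 0.0141) and PSMB3 174 and 168 against 134 and 136 CPM (adjusted p = 0.00972), Ctrl shRNA first. PSMB1 had 145 and 158 against 123 and 122 CPM and fell 1.23-fold (edgeR adjusted p = 0.0217). The calls of PSMB1, PSMB3, PSMB4 and PSMB6 were each lost without STAT3 shRNA replicate 1, without STAT3 shRNA replicate 2 and on FPKM. PSMB2, which had 220.5 and 209 against 212 and 220.2 CPM, overlapped between the groups at a log2 fold change of 0.01 (95% interval -0.17 to 0.19), whose sign changed with the scaling.

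Of the 3 immunoproteasome genes, PSMB9, the inducible counterpart of PSMB6, rose, while PSMB8 and PSMB10 did not pass the threshold. The median log2 fold change of the 3 was 0.19, and 16.8% of all genes tested were called higher. PSMB9 (chr6:32844136-32859585, plus strand) had 100 and 146 reads with Ctrl shRNA and 329 and 224 with STAT3 shRNA, or 5.30 and 7.63 CPM with Ctrl shRNA and 12.3 and 12.2 CPM with STAT3 shRNA. Both STAT3 shRNA libraries were above both Ctrl shRNA libraries, a 1.89-fold higher level (edgeR, log2 fold change 0.92 ± 0.196 SE, adjusted p = 0.00711; adjusted p from 1.8e-05 to 0.03 over 16 alternatives). It remained a low-abundance transcript, at 6.47 ± 1.65 and 12.3 ± 0.119 CPM (SD, n = 2 per group). The locus is crowded: exons of PSMB9 overlap those of PSMB8, which had 1003% as many reads, and of PSMB8-AS1, which had 49.7% as many. Since the use of strand is not stated, reads of these genes may not be fully separated. PSMB8-AS1 had 4.08 and 3.82 against 5.66 and 5.22 CPM (log2 fold change 0.46, edgeR adjusted p = 0.117). Blood cells are rich in immunoproteasome, and of 7 listed blood cell markers 3 were analysed, CD14, LYZ and CD68. Their summed level was 11.1 and 14.8 CPM with Ctrl shRNA and 24.5 and 28.2 CPM with STAT3 shRNA, nearly all of it CD68. CD14, at 1 to 4 reads per library, was lower with STAT3 shRNA (0.159 and 0.209 against 0.075 and 0.054 CPM). LYZ overlapped between the groups (0.477 and 0.209 against 0.375 and 0.217 CPM). The part of these differences in the PSMB9 result was not tested.

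PSMB8, the inducible counterpart of PSMB5 (chr6:32840717-32844703, minus strand), had 86.5 and 93.7 CPM with Ctrl shRNA and 97.8 and 108 CPM with STAT3 shRNA. The STAT3 shRNA libraries were higher without overlap, but the difference did not pass the threshold (edgeR, log2 fold change 0.19 ± 0.091 SE, adjusted p = 0.137). It did so with a GC offset (adjusted p = 0.00802) and without Ctrl shRNA replicate 2 (adjusted p = 0.0372), in a range of 0.00802 to 0.657 over 16 alternatives. PSMB10, the inducible counterpart of PSMB7 (chr16:67934502-67937087, minus strand), had 20.9 and 29.2 CPM with Ctrl shRNA and 19.2 and 19.5 CPM with STAT3 shRNA. It shares exons with AC040162.1, which lies on the same strand. AC040162.1 had 16.2% as many reads and a log2 fold change of -0.67, and the part of this in the PSMB10 result was not tested. The lower Ctrl shRNA library of PSMB10 lay close to the STAT3 shRNA libraries and the difference did not pass the threshold (edgeR, log2 fold change -0.37 ± 0.155 SE, adjusted p = 0.0938). Without Ctrl shRNA replicate 1 it was called lower (adjusted p = 0.000476).

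Set against their constitutive counterparts, 2 of the 3 inducible subunits took a larger share with STAT3 shRNA. The FPKM of PSMB8 was 34.8% and 35.9% of that of PSMB5 with Ctrl shRNA and 56.2% and 63.6% with STAT3 shRNA. For PSMB9 over PSMB6 the values were 1.95% and 2.15%, and 5.45% and 6.33%. Neither ratio overlapped between the groups, and the numerator and the denominator differed in opposite directions in both. For PSMB10 over PSMB7 the ratio was 16.4%, 23.2%, 19.7% and 18.4% in the same order, and the groups overlapped. The exact two-sided permutation p on the log2 CPM ratios was 0.33, 0.33 and 1 for the 3 pairs, and 0.33 is the smallest value that 2 against 2 libraries can give. Adjusted by Benjamini-Hochberg over 5 ratios, which include PSME1 over PSME3 and PSME2 over PSME1, the values were 0.556, 0.556 and 1 (exact permutation test). Altogether the immunoproteasome genes took 0.0110% and 0.0124% of reads with Ctrl shRNA and 0.0133% and 0.0145% with STAT3 shRNA, most of it PSMB8.

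**Figure D3:**
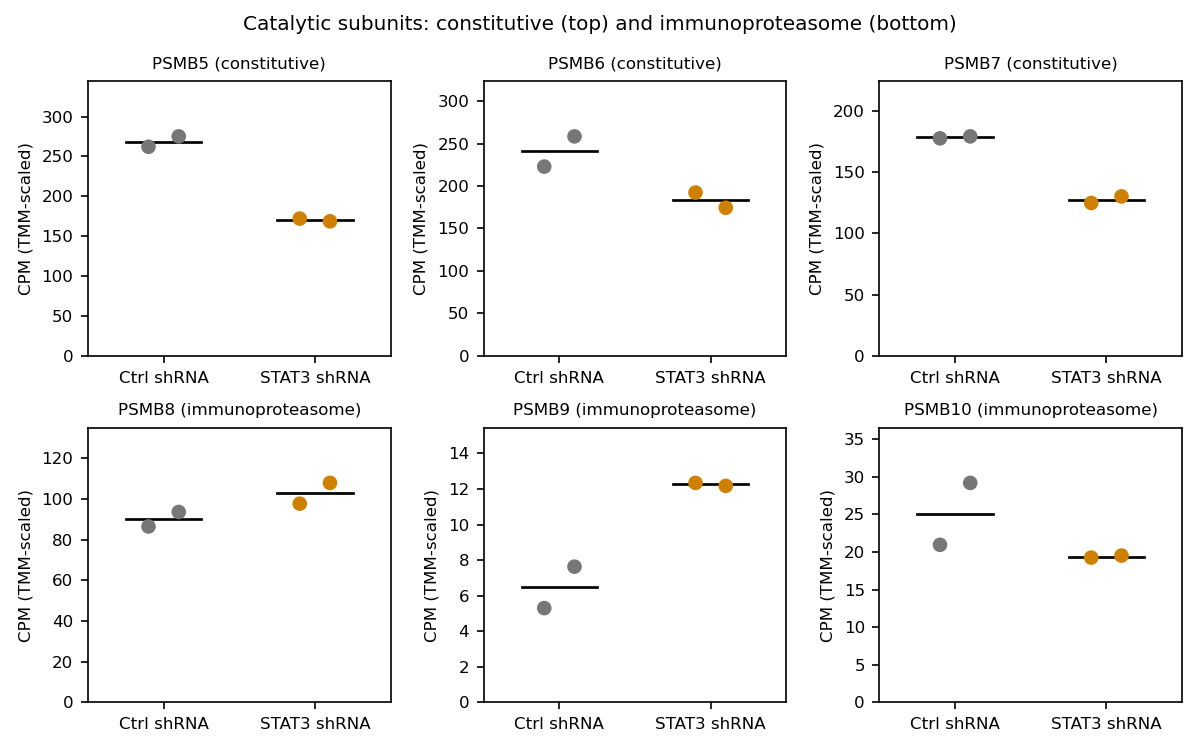
TMM-scaled CPM of the 3 constitutive catalytic subunits (top) and their inducible counterparts (bottom), with a point per library and a line at the group mean of 2. The constitutive subunits are lower with STAT3 shRNA in each panel, PSMB9 is higher, PSMB8 is higher by less than the threshold requires, and the Ctrl shRNA points of PSMB10 are widely spaced.

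Promoter sequences of these genes are shown here because PSMB5 fell and PSMB9 rose within the same libraries. They run from 250 bases before to 50 bases after a start site in RefSeq (GRCh38.p14), 5′ to 3′ on the strand of the gene, with capitals on the motif matches described next.
PSMB5 chr14:23034851-23035150 minus strand: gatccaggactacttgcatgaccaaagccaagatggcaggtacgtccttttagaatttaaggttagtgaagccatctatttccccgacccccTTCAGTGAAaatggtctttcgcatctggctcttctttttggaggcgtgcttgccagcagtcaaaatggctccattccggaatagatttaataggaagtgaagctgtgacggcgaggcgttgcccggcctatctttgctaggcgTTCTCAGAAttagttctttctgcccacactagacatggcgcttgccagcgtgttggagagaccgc
PSMB8 chr6:32843998-32844297 minus strand: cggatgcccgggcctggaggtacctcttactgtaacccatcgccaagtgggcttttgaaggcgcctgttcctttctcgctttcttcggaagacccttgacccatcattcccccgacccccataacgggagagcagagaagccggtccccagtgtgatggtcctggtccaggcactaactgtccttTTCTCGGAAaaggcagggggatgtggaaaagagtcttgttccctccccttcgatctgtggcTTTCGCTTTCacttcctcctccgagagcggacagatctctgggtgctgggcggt
PSMB9 chr6:32853942-32854241 plus strand: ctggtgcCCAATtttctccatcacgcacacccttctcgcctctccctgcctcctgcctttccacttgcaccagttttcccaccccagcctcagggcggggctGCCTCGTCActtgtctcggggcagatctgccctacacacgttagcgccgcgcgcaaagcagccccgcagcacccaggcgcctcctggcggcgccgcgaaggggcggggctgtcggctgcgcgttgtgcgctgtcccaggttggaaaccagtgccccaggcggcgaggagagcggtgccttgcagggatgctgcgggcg
PSMB10 chr16:67936801-67937100 minus strand: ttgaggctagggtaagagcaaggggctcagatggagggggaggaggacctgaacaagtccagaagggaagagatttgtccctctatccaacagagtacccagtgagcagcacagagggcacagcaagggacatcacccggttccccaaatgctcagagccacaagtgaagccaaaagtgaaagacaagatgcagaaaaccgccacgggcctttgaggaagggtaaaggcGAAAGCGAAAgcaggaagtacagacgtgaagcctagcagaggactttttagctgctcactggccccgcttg
PSMB5 held TTCNNNGAA, the form of a STAT binding element, at 2 places, and PSMB8 held it once. A second RefSeq promoter of PSMB5 and of PSMB8 held none. PSMB8 and PSMB10 held GAAANNGAAA, the core of the interferon-stimulated response element, on the opposite strand in PSMB8 and on the printed strand in PSMB10. PSMB9 held a CCAAT box and, on the other strand, TGACNNNGC, the core of the antioxidant response element bound by NRF1 and NRF2. Positions of the matches are a description of letters and not of binding.

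Motifs were searched on both strands in 50 promoters of 41 proteasome genes and in all 35116 promoters of that length. TTCNNNGAA was in 14% of the proteasome promoters and in 7.66% of all, in PSMA2, PSMB5, PSMB8, PSMC4, PSMD2, PSMD3 and PSME3. Of these 7 genes, 5 were among the 13 lower genes with a promoter entry. In PSMD2 the match lay only in the window at chr3:184300331-184300630, after its start site, and the window at chr3:184298991-184299290 held 0. TGACNNNGC was in 30% of the proteasome promoters and 13.3% of all, and 5 of its 15 genes were called lower. For neither motif is the share of lower calls among all genes that hold it reported here, so no link with the calls was tested. GAAANNGAAA was in 14% against 3.57%, in PSMA4, PSMB4, PSMB8, PSMB10, PSME1, PSME2 and PSMG4. CCAAT was in 40% against 34.6%. The table held more than 1 promoter for 8 of the 41 genes, and no window was checked for use in these cells.

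In the regulatory particle, 9 of 17 genes fell, 0 rose and 8 did not pass the threshold (median log2 fold change -0.29). The share that fell was 52.9%, beside 18.7% lower among all genes tested. In 94.1% of the regulatory particle genes the groups did not overlap, against 70.8% of all genes. Its genes took 0.312% and 0.308% of reads with Ctrl shRNA and 0.276% in each STAT3 shRNA library. Of the 6 ATPases, which unfold the substrate and feed it into the core, PSMC4 and PSMC5 fell (33.3%, beside 18.7% of all genes tested). PSMC5 had 175 and 203 CPM with Ctrl shRNA and 147 and 141 CPM with STAT3 shRNA (edgeR, log2 fold change -0.39 ± 0.094 SE, adjusted p = 0.0119), and it shares exons with FTSJ3, which had 59.5% as many reads. PSMC4 had 138 and 137 CPM with Ctrl shRNA and 110.3 and 107 CPM with STAT3 shRNA (edgeR, log2 fold change -0.34 ± 0.080 SE, adjusted p = 0.0108). Both groups of PSMC4 were tight and apart, yet its call was lost with a GC offset. The calls of PSMC4 and PSMC5 were both lost on FPKM and without either one of the STAT3 shRNA libraries. PSMC1 is the highest ATPase by mean FPKM and had 185 and 172 against 157 and 156 CPM (edgeR adjusted p = 0.102). PSMC2 had 165 and 167 against 174 and 182 CPM and lay in the other direction (log2 fold change 0.10, edgeR adjusted p = 0.346). PSMC3 and PSMC6 had log2 fold changes of -0.19 and -0.21 (edgeR adjusted p = 0.131 and 0.0861), and both were called lower without Ctrl shRNA replicate 1.

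Among the 11 non-ATPase subunits, 7 fell (63.6%, beside 18.7% of all genes tested). PSMD14, the metalloprotease that cuts ubiquitin chains from substrates (chr2:161308038-161411717, plus strand), had 152 and 151 CPM with Ctrl shRNA and 98.9 and 100.4 CPM with STAT3 shRNA. Each pair agreed within 2 CPM, and the level with STAT3 shRNA was 1.52-fold lower (edgeR, log2 fold change -0.61 ± 0.079 SE, adjusted p = 0.000687). PSMD13 had 144 and 153 CPM with Ctrl shRNA and 103 and 113 CPM with STAT3 shRNA (edgeR, log2 fold change -0.46 ± 0.087 SE, adjusted p = 0.00437). It shares exons with SIRT3 on the opposite strand, which had 13.4% as many reads and a log2 fold change of -0.52. PSMD1, a scaffold of the base, had 207 and 189 CPM with Ctrl shRNA and 152 and 137 CPM with STAT3 shRNA (edgeR, log2 fold change -0.45 ± 0.090 SE, adjusted p = 0.0052). Neither overlapped between groups, but both lost their calls on FPKM, PSMD13 also without STAT3 shRNA replicate 1 and PSMD1 without STAT3 shRNA replicate 2. PSMD3 had 228 and 242 against 186 and 173 CPM (edgeR adjusted p = 0.00779), with no overlap. PSMD2, the other base scaffold and the highest of this class by FPKM, had 527 and 535 CPM with Ctrl shRNA and 421 and 416 CPM with STAT3 shRNA (1.27-fold lower, edgeR adjusted p = 0.00852). On FPKM its values were 219 and 214 against 194 and 215 FPKM, a log2 difference of -0.08 with a pseudocount of 1, so the size of its change depended on the unit. PSMD4, a ubiquitin receptor, and PSMD8 fell 1.23-fold and 1.26-fold (edgeR adjusted p = 0.0259 and 0.0203). The calls of PSMD2, PSMD3, PSMD4 and PSMD8 were lost on leaving out either one of the STAT3 shRNA libraries and on FPKM. With limma on FPKM, PSMD14 was the only 1 of the 17 regulatory particle genes called lower, so the count of 9 depended on the unit. PSMD12, a subunit of the lid, had 101 and 86.1 against 105 and 109 CPM (edgeR adjusted p = 0.144), the only positive value among the non-ATPase subunits. PSMD6, PSMD7 and PSMD11 had log2 fold changes of -0.10, -0.22 and -0.13.

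None of the 3 assembly chaperones of the regulatory particle with PSMD names passed the threshold: log2 fold changes were -0.19 for PSMD5, -0.29 for PSMD9 and -0.13 for PSMD10, with edgeR adjusted p of 0.104, 0.0686 and 0.303. The groups did not overlap for any of the 3, nor for 70.8% of all genes tested. Without Ctrl shRNA replicate 1, PSMD5 and PSMD9 were called lower (adjusted p = 0.0317 and 0.000476). PSMD9 was also called lower with no filter (adjusted p = 0.03) and by limma on FPKM (adjusted p = 0.0435 and 0.0447 with pseudocounts of 1 and 0.1), and PSMD5 and PSMD10 with a GC offset (adjusted p = 0.00405 and 0.0152).

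No activator passed the threshold, and the groups did not overlap in 1 of 4, against 70.8% of all genes. PSME1 and PSME2 encode the interferon-inducible PA28 alpha and beta subunits. PSME1 had 98.1 and 118 CPM with Ctrl shRNA and 122 and 119 CPM with STAT3 shRNA (edgeR, log2 fold change 0.16 ± 0.102 SE, adjusted p = 0.267; 95% interval of the log2 fold change -0.08 to 0.39). PSME2 had 99.8 and 121 CPM with Ctrl shRNA and 101 and 97.0 CPM with STAT3 shRNA (edgeR, log2 fold change -0.16 ± 0.104 SE, adjusted p = 0.275). The groups did not overlap for PSME1, though Ctrl shRNA replicate 2 lay within 1 CPM of the lower STAT3 shRNA library, and they overlapped for PSME2, whose highest library was Ctrl shRNA replicate 2. The FPKM of PSME2 relative to PSME1 was 131.6% and 133% with Ctrl shRNA and 116% and 108% with STAT3 shRNA, without overlap (exact permutation p on the CPM ratio 0.33, the smallest possible). PSME3, the nuclear activator PA28 gamma, had 225 and 216 against 221 and 223 CPM (log2 fold change 0.01, 95% interval -0.16 to 0.19). PSME4, the activator PA200, had 114 and 94.1 against 98.4 and 101 CPM (log2 fold change -0.06, 95% interval -0.30 to 0.17). Leaving out Ctrl shRNA replicate 2 made PSME1 higher (adjusted p = 0.00712) and PSME4 lower (adjusted p = 0.0454), and leaving out Ctrl shRNA replicate 1 made PSME2 lower (adjusted p = 0.00273). PSMF1, which encodes the regulator PI31, had 87.9 and 90.3 against 89.9 and 93.5 CPM (log2 fold change 0.04, edgeR adjusted p = 0.726).

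The 4 chaperones that assemble the core act in pairs. PSMG3 and PSMG4, which act together on the alpha ring, fell (50% of the 4, beside 18.7% of all genes tested). PSMG4 (chr6:3231403-3303373, plus strand) had 40.8 and 49.3 CPM with Ctrl shRNA and 27.3 and 27.3 CPM with STAT3 shRNA, 1.65-fold lower and the lowest fitted value of all 46 genes (edgeR, log2 fold change -0.72 ± 0.114 SE, adjusted p = 0.00173). PSMG4 shares exons with SLC22A23 on the opposite strand, which had 10.2% as many reads and a log2 fold change of -0.46. The part of this in the PSMG4 result was not tested. PSMG3 had 62.2 and 80.3 CPM with Ctrl shRNA and 46.3 and 48.9 CPM with STAT3 shRNA (edgeR, log2 fold change -0.58 ± 0.124 SE, adjusted p = 0.00699), a call lost without STAT3 shRNA replicate 1 and on FPKM. PSMG1 and PSMG2, the other pair, had 84.0 and 90.8 against 96.3 and 100.3 CPM and 45.9 and 49.6 against 49.8 and 54.3 CPM, both without overlap, with higher values in the STAT3 shRNA libraries that did not pass the threshold (edgeR adjusted p = 0.155 and 0.35). PSMG2 overlaps SPIRE1, which had 79.8% as many reads. The promoters of PSMG4 and PSMD14 are given because both genes were called lower in 16 of 16 alternatives other than the test against a fold.
PSMG4 chr6:3258697-3258996 plus strand: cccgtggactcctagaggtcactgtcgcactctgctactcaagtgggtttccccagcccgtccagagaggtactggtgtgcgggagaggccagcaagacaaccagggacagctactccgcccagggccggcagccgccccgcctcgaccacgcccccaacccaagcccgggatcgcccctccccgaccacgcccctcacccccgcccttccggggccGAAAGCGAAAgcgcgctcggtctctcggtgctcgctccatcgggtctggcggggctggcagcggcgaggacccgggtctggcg
PSMD14 chr2:161308175-161308474 plus strand: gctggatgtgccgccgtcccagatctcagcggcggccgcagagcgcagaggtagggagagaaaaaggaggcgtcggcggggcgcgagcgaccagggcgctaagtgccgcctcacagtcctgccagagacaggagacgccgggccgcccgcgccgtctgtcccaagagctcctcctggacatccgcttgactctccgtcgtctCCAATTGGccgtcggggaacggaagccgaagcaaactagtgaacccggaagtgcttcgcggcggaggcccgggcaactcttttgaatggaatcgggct
The capitals mark GAAANNGAAA in PSMG4 and, in PSMD14, CCAAT boxes on both strands that overlap each other.

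Genes that work with the proteasome but have other names were read from lists. Of 13 listed partners tested, 2 fell and 2 rose in counts (median log2 fold change -0.07), beside 18.7% lower and 16.8% higher among all genes tested. SEM1, the smallest subunit of the regulatory particle, had 74.7 and 89.7 CPM with Ctrl shRNA and 53.6 and 52.1 CPM with STAT3 shRNA (edgeR, log2 fold change -0.64 ± 0.105 SE, adjusted p = 0.00215). In deposited FPKM SEM1 went the other way without overlap, with 100.4 and 83.6 FPKM with Ctrl shRNA and 121 and 128 FPKM with STAT3 shRNA, so its direction depended on the unit. POMP, which assists core assembly, had 83.9 and 74.5 against 57.0 and 62.3 CPM (edgeR adjusted p = 0.0116), with no overlap. ZFAND5, a proteasome-binding stimulator of degradation, had 124 and 116 against 152 and 157 CPM (edgeR adjusted p = 0.00938), and UBE3A, a ubiquitin ligase, 77.8 and 69.1 against 94.4 and 93.3 CPM (adjusted p = 0.0157), both higher.

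Of 11 genes tested in the NRF1 and NRF2 pathway, through which cells raise proteasome gene transcription, 3 fell and 0 rose (median -0.17). Among all genes tested 18.7% were lower and 16.8% higher. MAFK, a small MAF partner of both factors, had 66.3 and 71.9 CPM with Ctrl shRNA and 26.5 and 32.9 CPM with STAT3 shRNA, 2.34-fold lower (edgeR, log2 fold change -1.22 ± 0.119 SE, adjusted p = 0.000164). MAFK (chr7:1530714-1543043) lies near PSMG3 (chr7:1567330-1571005), whose neighbouring genes had a median log2 fold change of -0.30. Its transcript GC content was 63.4%, and the part of position and of GC content in the MAFK result was not tested. DDI2, the protease that activates NRF1, had 82.1 and 69.3 against 52.0 and 54.6 CPM (edgeR adjusted p = 0.00582), and KEAP1, the inhibitor of NRF2, 91.6 and 96.1 against 70.9 and 71.1 CPM (adjusted p = 0.0061). NFE2L1, which encodes NRF1 itself, had 183 and 201 against 189.9 and 176 CPM (log2 fold change -0.07, edgeR adjusted p = 0.589).

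Of 16 genes for ubiquitin supply and delivery, 3 fell and 0 rose (median -0.05). The share that fell was close to the 18.7% lower among all genes tested, of which 16.8% were higher. RPS27A, which encodes ubiquitin fused to a ribosomal protein, had 945 and 1033 against 598 and 688 CPM and fell (edgeR adjusted p = 0.00138). UBB, a polyubiquitin gene, had a log2 fold change of 0.14 that did not pass the threshold (edgeR adjusted p = 0.194). NPLOC4, a cofactor of the segregase VCP, fell 1.18-fold in counts (edgeR adjusted p = 0.0431), but its FPKM overlapped between the groups (53.1 and 52.4 against 56.3 and 50.2 FPKM).

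Of 12 genes for control of the immunoproteasome and peptide loading, 3 rose and 1 fell (median 0.13), beside 16.8% higher and 18.7% lower among all genes tested. ERAP1, which trims peptides, had 15.3 and 10.8 CPM with Ctrl shRNA and 36.4 and 31.0 CPM with STAT3 shRNA, 2.59-fold higher (edgeR, log2 fold change 1.37 ± 0.165 SE, adjusted p = 0.000452). HLA-B had 157 and 169 against 248 and 249 CPM (edgeR adjusted p = 0.000762) and its partner B2M 873 and 1066 against 1208 and 1243 CPM (adjusted p = 0.0297), without overlap. Reads of HLA genes can be split among similar copies, so the HLA-B value is uncertain. TAPBP, the tapasin of the loading complex, had 4.35 and 10.3 against 2.74 and 2.45 CPM and fell (edgeR adjusted p = 0.0145). The inducers IRF1 and NLRC5 had log2 fold changes of 0.16 and -0.19, and neither passed the threshold. TAP1, whose gene lies beside PSMB9 and in the opposite direction, had 69.6 and 70.1 against 59.8 and 60.1 CPM (log2 fold change -0.22, edgeR adjusted p = 0.0701).

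Base composition and chromosomal position moved with some of these changes. Across 14545 genes with a GENCODE 29 transcript the log2 fold change had a Spearman rho of -0.34 with GC content, and across the 46 proteasome genes -0.37. The difference between the Ctrl shRNA libraries also followed GC content (rho 0.45 across genes). Called proteasome genes had a median GC content of 52.3% and those not called 45.99%. With a GC offset in the fit, 22 were called lower and 3 higher (PSMB8, PSMB9 and PSME1), and 17 of the 20 calls were shared; PSMC4, PSMD4 and PSMD8 lost theirs. Among all genes tested with that offset 17% were lower and 18.8% higher, more higher than lower, the reverse of the order without it. Set beside the nearest tested genes on the chromosome, up to 10 on each side, 36 of the 46 genes lay below the median of their neighbours. The matching share over all genes tested is not reported here. Of the 19 lower genes 17 did so, a count largely set in advance because they were picked by their fall in the same data. PSMB5 (neighbour median 0.05), PSMG4 (-0.04) and PSMB9 (-0.06) stood in surroundings near 0. PSMD1, PSMD13 and PSMD14 lay among lowered neighbours: the medians were -0.61, -0.54 and -0.47, and 12 of 20, 10 of 14 and 9 of 20 neighbours were called lower. PSMD1 and PSMD13 were not below their neighbours' median. Other called genes also had lowered neighbours: for PSMA7, PSMB6 and PSMG3 the medians were -0.25, -0.29 and -0.30, and 7, 9 and 9 of 20 neighbours were called lower. The part of GC content and of position in the results was not otherwise tested.

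**Figure D4:**
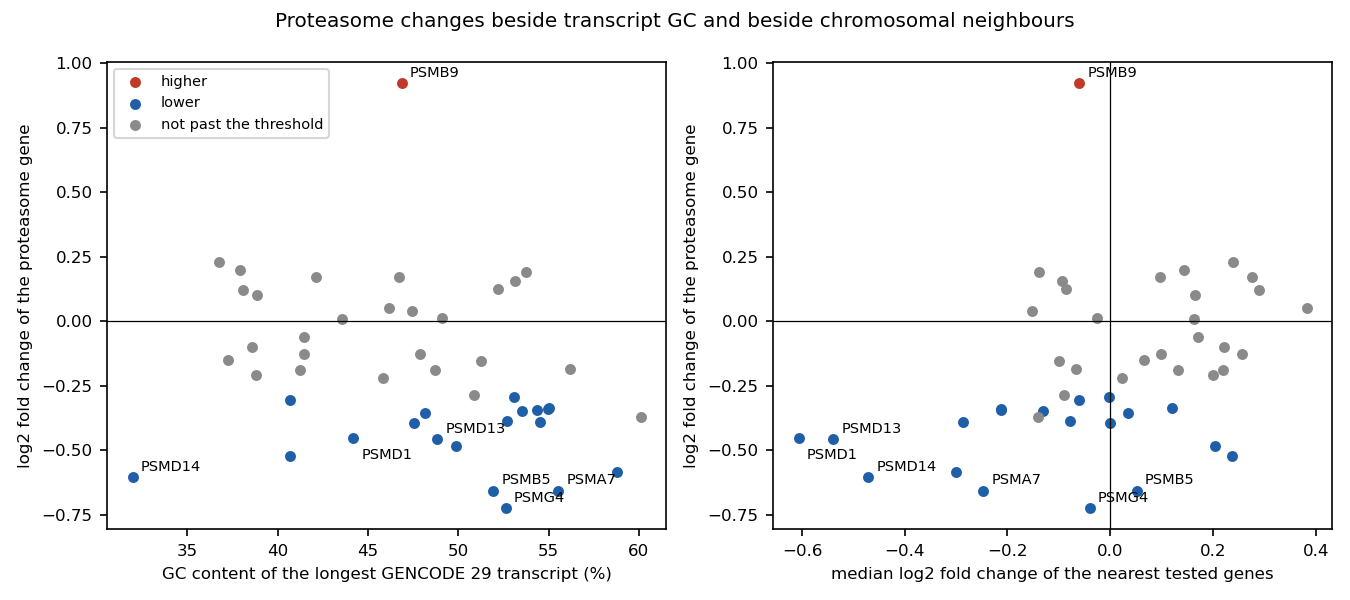
Log2 fold change of each proteasome gene against the GC content of its longest GENCODE 29 transcript in percent (left) and against the median log2 fold change of up to 20 neighbouring tested genes (right), with 1 point per gene coloured by call. PSMB5, PSMG4 and PSMB9 lie near a neighbour median of 0, and PSMD1, PSMD13 and PSMD14 at -0.47 or below.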

How the data were processed

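RNA of 4 libraries, 2 with Ctrl shRNA and 2 with STAT3 shRNA, had been sequenced by the authors. They deposited a table of raw counts, which are whole numbers, and a table of FPKM, both for the same genes, per the file headers. Not given in the sources used here were the aligner, the counter, the build, the annotation, the kit and whether strand was used. Groups came from the sample titles, and their numbers, which may stand for a replicate or a hairpin, name the libraries. The columns named "Si" were inferred to be STAT3 shRNA.

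The counts went into the quasi-likelihood test of edgeR 4.0.16 (R 4.3.3; glmQLFit, glmQLFTest), two-sided and without covariates, after filterByExpr and TMM scaling with factors of 0.979, 0.951, 1.03 and 1.04. P-values were adjusted by Benjamini-Hochberg over all 15199 genes tested and called under 0.05. SEs come from the quasi-likelihood F. FPKM were used for levels between genes and, with limma 3.58.1 on log2(FPKM + 1) and log2(FPKM + 0.1), as an alternative. The other alternatives were DESeq2 1.42.0, the edgeR exact test, scaling by RLE or by upper quartile, a GC offset, no filter, a filter of 5 CPM in 2 libraries, sums with named pseudogenes, a replicate block, leaving out each library, a stricter threshold (0.01) and testing against a fold of 1.5.

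Members and gene lists were chosen with earlier results of these data known. Described in full were the immunoproteasome genes, their counterparts and the activators, in other classes up to 5 called genes by size of change and the highest and lowest by FPKM, and up to 6 called genes per other list. Other genes named were chosen after their values were seen. Values of some listed genes are not reported here. Positions, neighbours and GC content are from GENCODE 29 (GRCh38), which may not be the annotation used by the authors. Promoters are from RefSeq (GRCh38.p14), with 50 windows for 41 genes. PSMA7, PSMB1, PSMB6, PSMB7, PSMD4 and PSMG3 had no entry.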

Additional observations from a re-analysis of the deposited data

How the results depend on the processing

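For the proteasome genes, 1 higher and 19 lower, other settings gave the following. The number of higher genes was 2 after upper-quartile scaling, 3 under a GC offset, 0 in the test against a fold of 1.5 and 1 to 4 on leaving out a library. The number of lower genes was 6 with limma on log2(FPKM + 1) and also 6 on log2(FPKM + 0.1), 12 at a threshold of 0.01, 0 in the test against a fold of 1.5 and 5 to 27 on leaving out a library. The median log2 fold change ran from -0.31 to -0.20 on leaving out a library. With a replicate block 19 were lower and 1 higher, and all 20 calls were shared. Deviations of libraries with the same number had a correlation of -0.02 across genes, so the numbers were not taken as pairs. Over all genes, 2552 were higher and 2844 lower, against 1128 and 1399 without STAT3 shRNA replicate 1, 1147 and 1420 without STAT3 shRNA replicate 2, 1349 and 1186 on log2(FPKM + 1), 1315 and 1179 on log2(FPKM + 0.1), 1265 and 1632 at 0.01, and 527 and 472 against a fold of 1.5. No called gene changed sign in any alternative, and 9 genes that were not called did. With a GC offset the log2 fold change was -0.0093 for PSMA1, -0.051 for PSMA6, -0.10 for PSMB2 and -0.075 for PSMC2. On log2(FPKM + 1) and log2(FPKM + 0.1) it was 0.12 and 0.12 for PSMA5, -0.17 and -0.17 for PSME3, 0.17 and 0.18 for PSME4, and -0.11 and -0.12 for PSMF1. With RLE scaling and with DESeq2 it was -0.0078 and -0.0078 for PSMB2, and -0.0024 and -0.0024 for PSME3. On leaving out a library it ran from -0.035 to 0.037 for PSMB2, -0.0056 to 0.29 for PSME1, -0.020 to 0.021 for PSME3, -0.20 to 0.051 for PSME4 and -0.012 to 0.070 for PSMF1. The cause was not tested. Where 1 library was left out, the lone library was assumed to vary like the other group. Depth limited PSMB9 most among the tested genes, with 100 reads in Ctrl shRNA replicate 1.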

Other observations

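Among 14 rows for pseudogenes of these genes, PSMC1P1, a processed copy of the ATPase gene PSMC1, stood out. It had 124 and 226 reads with Ctrl shRNA and 0 and 22 with STAT3 shRNA, or 6.58 and 11.8 against 0.0 and 1.20 CPM (edgeR, log2 fold change -4.13 ± 0.798 SE, adjusted p = 0.00449). The other 13 had at most 4 reads in any library. Reads of a processed copy can be exchanged with those of its parent, so both are uncertain. PSMC1 itself did not pass the threshold, and the sum of PSMC1 and its named pseudogenes was called lower (log2 fold change -0.26, edgeR adjusted p = 0.0332). The sum was fitted in this one setting only.

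The antisense genes PSMA3-AS1 and PSMG3-AS1 had 24.7 and 18.4 against 25.2 and 27.2 CPM and 1.91 and 1.67 against 2.03 and 2.28 CPM, with log2 fold changes of 0.28 and 0.26 that did not pass the threshold (edgeR adjusted p = 0.163 and 0.561). Exons of PSMG3-AS1 overlap those of PSMG3 in GENCODE 29, so without a stated use of strand reads there cannot be told apart, while the exons of PSMA3-AS1 and PSMA3 do not overlap.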
